A study of Mus musculus with 24 samples.

Results

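The genes described here code for the extracellular matrix, the integrins that bind it, and the proteases and protease inhibitors that remodel it. They were chosen by gene symbol, with a pattern covering collagens, laminins, fibulins, fibrillins, elastin, microfibril proteins, lysyl oxidases, matricellular glycoproteins, proteoglycans, integrins, the ADAM, ADAMTS and MMP proteases, TIMPs and serpins. The pattern matched 67 of the 1753 genes that appear in at least 1 of 23 tables of differential expression. Matrix genes that passed the p-value limit of these tables in no condition are therefore not among the 67. The study followed neural differentiation of P19 mouse embryonic carcinoma cells, a pluripotent tumour cell line, by poly(A) RNA sequencing after exposure to retinoids.

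WT cells were sampled at days 2, 4 and 10 with ATRA (all-trans retinoic acid, which activates all RAR subtypes, 1 µM), with the RARα agonist BMS753 (1 µM), with the RARβ agonist BMS641 together with the RARγ agonist BMS961 (0.1 µM each), or with the vehicle EtOH, and at day 10 with BMS961 alone (0.1 µM). The raraKO line, which lacks RARα, was sampled at day 10 with ATRA, BMS961 or the combination of BMS641 and BMS961. The rarbKO line, which lacks RARβ, was sampled at day 10 with ATRA, BMS753, BMS961 or the combination. The rargKO line, which lacks RARγ, was sampled at day 10 with ATRA, BMS753, BMS641 or the combination. The mutant lines were made from P19 cells with CRISPR/Cas9 and a puromycin resistance cassette. In every condition the day 10 sample had received its ligand or vehicle for 4 days in serum-containing medium and then 6 days of Neurobasal medium with N2 and B27 supplements. Rara, Rarb and Rarg themselves appear in none of the tables, so the genotypes were not checked here.

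There was 1 library per condition, which leaves every comparison without replicates, and no test between conditions was made. Every value is the deposited log2 fold change of a condition against the same library, WT cells in EtOH at day 2. A gene past 4-fold, that is a log2 fold change over 2 in size, is called up-regulated or down-regulated. Each table lists only genes with an unadjusted p-value under 0.01, so a gene that is not listed may still have changed. The standard error (SE) given with a value is the one its log2 fold change and p-value imply, and it ran from 0.60 to 2.78 for these genes, with a median of 1.96. Differences between conditions smaller than the SE of either value are not ranked. The SE is a model value for the comparison with EtOH at day 2. It is neither a spread of replicates nor the SE of a difference between 2 conditions. No vehicle table of a mutant line was used, so the effects of the line and of the ligand cannot be told apart in the mutants. The depth of the libraries is unknown because the tables hold no counts.

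The matrix around cells is built from fibril-forming collagens, mainly types I, III and V, with network and beaded-filament collagens, basement membranes of laminin and type IV collagen, elastic microfibrils of fibrillin, and proteoglycans that hold water and growth factors. Integrins link this material to the cytoskeleton, metalloproteinases cut it, and TIMPs and many serpins restrain the proteases. Mesenchymal cells make most fibrillar collagen, while the matrix of the developing nervous system is rich in hyaluronan-binding proteoglycans such as versican and in tenascins. Retinoic acid steers pluripotent cells toward neural and mesodermal fates through RAR and RXR dimers that bind direct repeats of a short DNA half-site.

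Upstream sequences are shown for 4 of the genes on which the results turn: Vcan, up-regulated from day 2, Col1a2 and Col3a1, up-regulated in every ATRA and BMS753 sample of day 10, and Loxl4, listed at day 10 in other samples only. They come from RefSeq (GRCm38.p6), are the 250 bases before the annotated start and run 5′ to 3′ on the gene's strand. Capitals mark 4 letter runs on either strand. GC boxes are GGGCGG. The pentamer read by the factor NF-Y is CCAAT. TATA boxes are searched as TATAAA. The last run, CAGACA, occurs in elements bound by SMAD proteins. The windows lie at chr13:89742513-89742762 on the minus strand for Vcan, chr6:4505368-4505617 on the plus strand for Col1a2, chr1:45311288-45311537 on the plus strand for Col3a1 and chr19:42612807-42613056 on the minus strand for Loxl4.
Vcan: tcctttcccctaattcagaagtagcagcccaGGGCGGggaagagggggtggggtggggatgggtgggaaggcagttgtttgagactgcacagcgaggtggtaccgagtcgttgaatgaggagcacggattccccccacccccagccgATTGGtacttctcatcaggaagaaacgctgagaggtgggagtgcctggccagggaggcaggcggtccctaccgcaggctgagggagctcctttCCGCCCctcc
Col1a2: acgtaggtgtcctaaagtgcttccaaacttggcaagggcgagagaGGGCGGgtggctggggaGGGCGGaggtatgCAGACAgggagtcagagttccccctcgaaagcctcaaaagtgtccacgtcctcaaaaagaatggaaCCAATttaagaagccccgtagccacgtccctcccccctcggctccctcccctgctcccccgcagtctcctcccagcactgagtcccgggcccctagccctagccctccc
Col3a1: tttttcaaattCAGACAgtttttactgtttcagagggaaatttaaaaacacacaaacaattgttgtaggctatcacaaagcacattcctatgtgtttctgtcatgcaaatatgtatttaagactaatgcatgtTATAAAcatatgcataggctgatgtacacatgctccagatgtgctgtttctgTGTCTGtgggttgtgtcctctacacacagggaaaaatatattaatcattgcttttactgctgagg
Loxl4: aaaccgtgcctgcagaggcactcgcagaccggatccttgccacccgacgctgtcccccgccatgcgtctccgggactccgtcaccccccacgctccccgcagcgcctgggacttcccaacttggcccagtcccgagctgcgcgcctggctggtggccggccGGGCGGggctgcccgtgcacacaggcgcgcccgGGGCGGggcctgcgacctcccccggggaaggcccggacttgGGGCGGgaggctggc
The Vcan window holds GC boxes at -219 and -10 and a CCAAT box at -103, counted from the start. The Col1a2 window holds GC boxes at -205 and -188, CAGACA at -175 and a CCAAT box at -109. Col3a1 has no GC box in its window, which holds a TATA box at -117 and CAGACA at -239 and -65, and Loxl4 has GC boxes at -89, -56 and -15.

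RefSeq gave 51 such windows for 44 of the 67 genes. A GC box was in 28 of these 51 windows, against 32.7% of all 32851 windows of this length, and a CCAAT box was in 17, against 33.8%. The TATA box was in 5 of the 51 windows, against 12.4% of all windows. CAGACA was in 13, against 17.1%. The retinoic acid response half-site AGGTCA was in 7 of the 51, against 14% of all windows, and the genes were Col11a1, Col6a5, Gpc4, Mfap2, Postn and Serpinf1. Direct repeats of AGGTCA spaced by 1, 2 or 5 bases were in none of the 51, and in 0.0335%, 0.00913% and 0.00913% of all windows. TGANTCA, the AP-1 site, was in 4 windows against 6.75%, and CANNTG, the E-box, in 32 against 66.2%. Both strands were searched, no 2 of the marked letter runs overlap in the 4 windows shown, and a match is no evidence of binding.

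The 67 genes were listed 305 times in the 23 tables, with 271 calls up and 31 calls down. No gene was called in both directions. At day 10, 51 of the 67 genes (76.1%) were up-regulated in at least 1 table, against 54.5% of the 1753 genes. Down-regulated in at least 1 table were 9 (13.4%), against 29.9%. The 9 were the aggrecan gene Acan, Adam12, Adamts16, Col6a5, Col9a2, the link protein gene Hapln4, Matn3, Mfap4 and Mmp2. Spon1, which codes for F-spondin, was listed once, at under 4-fold, and was never called. There were 18 genes in 1 table each and 7 genes in 10 or more tables, which were Col11a1, Col12a1, Col1a2, Col3a1, Col6a5, Fbn2 and Vcan.

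**Figure D1:**
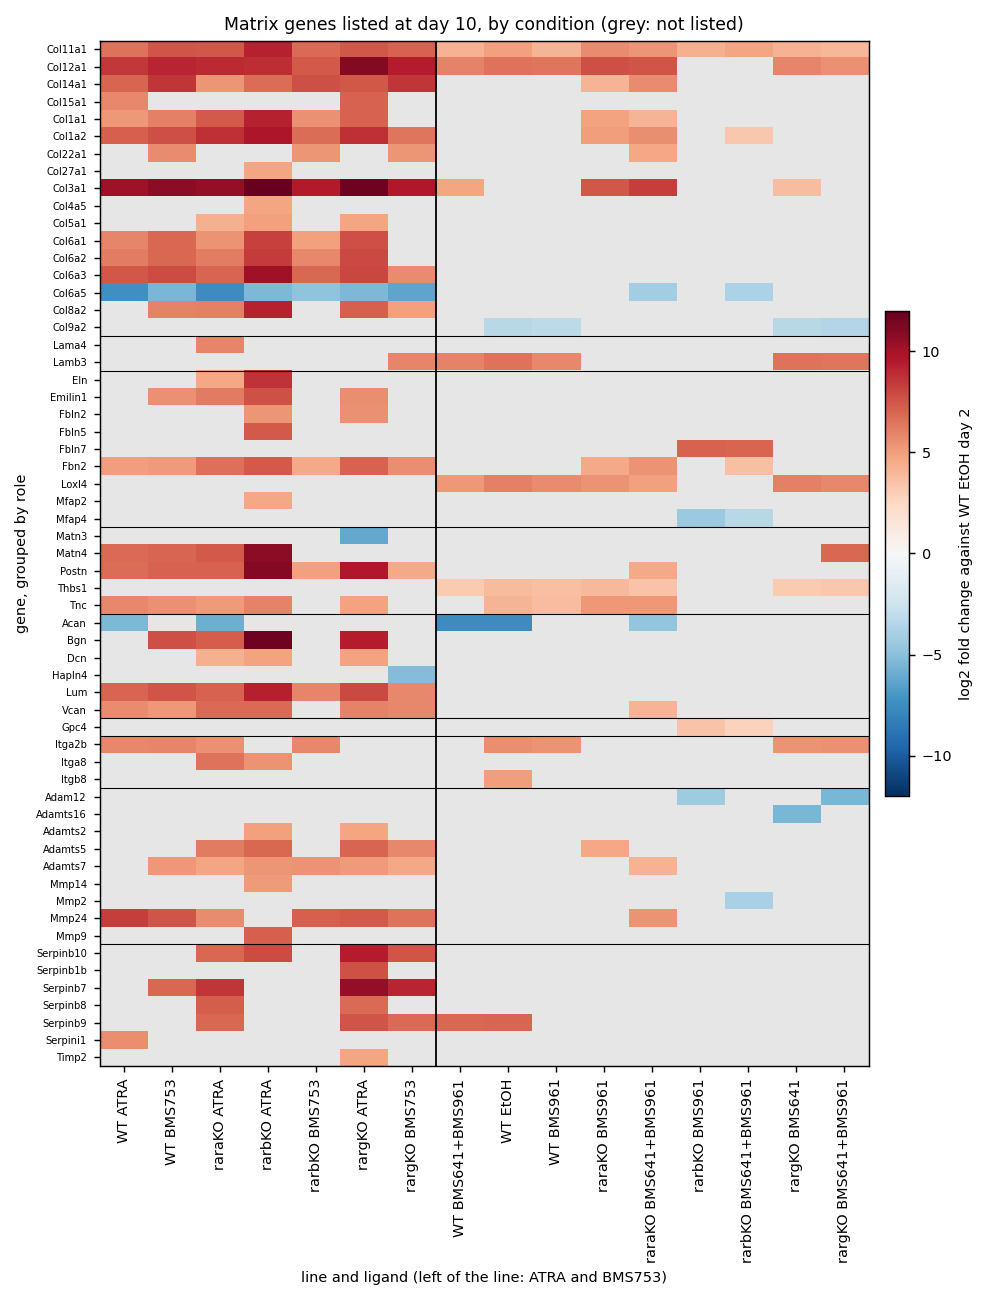
Log2 fold change against WT EtOH at day 2 (colour) of matrix genes (rows, grouped by role from collagens at the top to protease inhibitors at the bottom) in each of the 16 day 10 samples (columns), with grey for a gene that is not listed. The 7 ATRA and BMS753 samples on the left carry most of the red cells among collagens, while Loxl4 is coloured only in 7 of the 9 samples on the right.

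In WT cells at day 10, ATRA up-regulated 19 of the 67 matrix genes and BMS753 up-regulated 23. Of all 1753 genes, 22.5% were up-regulated with ATRA and 21.8% with BMS753. The shares of the matrix genes were 28.4% and 34.3%. Col3a1, the chain of the fibrillar type III collagen, had the largest value of the 67 genes in both tables, a log2 fold change of 10.19 with ATRA and 10.77 with BMS753. The median of the up-regulated matrix genes was 6.50 with ATRA and 6.92 with BMS753, beside medians of 6.94 and 6.91 for all up-regulated genes, so the matrix genes were not changed by more than others that passed.

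The 10 largest increases with ATRA in WT cells were Col3a1 (10.19, SE 2.34), Col12a1 (8.49, SE 2.40), Mmp24 (8.27, SE 2.39), Col6a3 (7.49, SE 2.22), Col1a2 (7.19, SE 2.08), Lum (7.00, SE 2.22), Col14a1 (6.94, SE 2.08), Matn4 (6.76, SE 2.60), Postn (6.67, SE 2.07) and Col11a1 (6.50, SE 2.06). Col12a1 and Col14a1 code for collagens that coat fibrils, Col6a3 for a chain of the beaded-filament collagen VI, Lum for lumican, a leucine-rich proteoglycan that spaces collagen fibrils, and Postn for periostin, a matricellular protein. Mmp24 codes for a membrane-type metalloproteinase known from the nervous system. The decreases were Col6a5, another collagen VI chain, at -7.39 (SE 2.28) and Acan at -5.42 (SE 2.10).

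ATRA and BMS753, given at the same dose of 1 µM, had 18 of these genes in both WT tables, all with the same sign. For 17 of the 18 the 2 values differed by less than the SE of either. The exception was Col6a5, which was at -7.39 with ATRA and -5.46 with BMS753. The differences, BMS753 minus ATRA, ran from -0.77 for Mmp24 to 1.93 for Col6a5 with a median of 0.54. Listed with BMS753 and not with ATRA were Bgn (biglycan, 7.74), Serpinb7 (6.86), Col8a2 (5.93), Col22a1 (5.66), Emilin1 (5.44) and Adamts7 (5.17). Listed with ATRA alone were Col15a1 (5.80), Serpini1, which codes for neuroserpin (5.57), and Acan.

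Without ATRA or BMS753, fewer matrix genes passed. In WT cells at day 10 EtOH had 10 up-regulated matrix genes (14.9% of the 67), against 9.53% of all genes. The combination of BMS641 and BMS961 had 8 (11.9%), against 9.87%, and BMS961 alone had 8 (11.9%), against 8.16%. With a p-value limit of 0.001 the counts were 6 with ATRA, 11 with BMS753, 4 in EtOH, 1 with the combination and 1 with BMS961, so the gap between ATRA and EtOH was 6 against 4. Col12a1 was at 6.55 in EtOH, 5.94 with the combination and 6.39 with BMS961, and Lamb3, a chain of an epithelial laminin, at 6.55, 5.95 and 5.73 in the same order. Loxl4, a lysyl oxidase that crosslinks collagen and elastin, was at 6.05, 5.19 and 5.64. Serpinb9, an intracellular inhibitor of granzyme B, was at 7.00 in EtOH and 6.91 with the combination and was not listed with BMS961.

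All 9 genes listed in both the EtOH and the BMS961 tables of day 10 differed by less than the SE of either value, and so did all 8 genes listed in both EtOH and the combination. BMS961 with and without BMS641 shared 6 genes, again all within the SE. The SEs of these shared genes ran from 1.13 to 2.67, so differences smaller than that were not ranked, and the treatments are not shown to act alike. Between BMS961 and the combination, 3 genes were listed in each table only. Tnc and Itga2b were listed in EtOH and with BMS961 and not with the combination. Col3a1 (4.78, SE 1.49) was listed with the combination and not in EtOH or with BMS961. Itgb8, the integrin subunit that pairs with the αv chain, was listed at day 10 in EtOH only (5.01, SE 1.68). The decreases were Acan at -7.51 (SE 2.54) in EtOH and with the combination, and Col9a2, a chain of a cartilage collagen, at -3.37 in EtOH and -3.16 with BMS961.

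**Figure D2:**
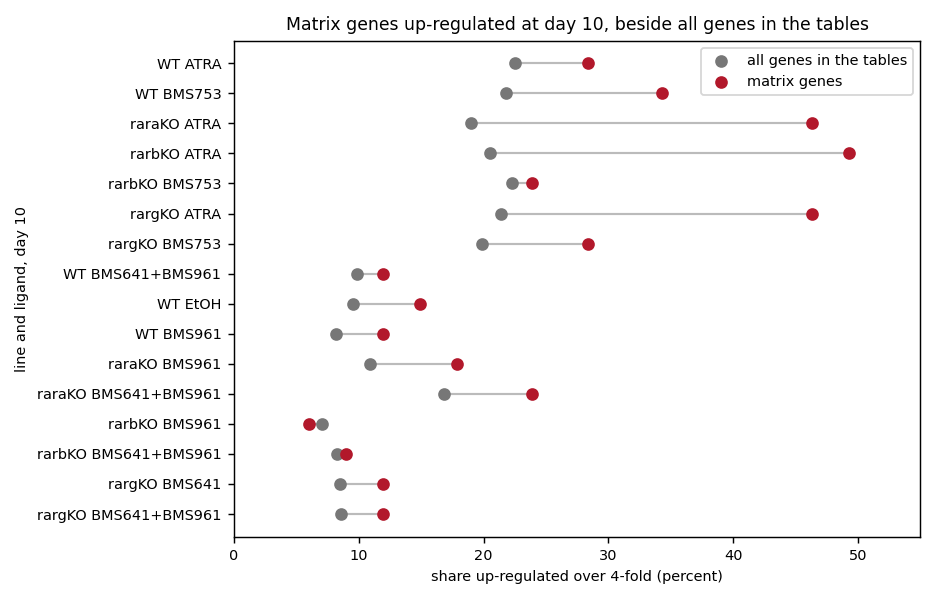
Percent of the 67 matrix genes (red) and of all 1753 genes in the tables (grey) up-regulated over 4-fold at day 10, for each line and ligand. The red points of ATRA in the 3 mutant lines lie at 46.3%, 49.3% and 46.3%, and the red point of rarbKO with BMS961 is the one to the left of its grey point.

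Between day 2 and day 4, 20 of the matrix genes were listed in WT cells, and 7 of them were listed only then. ATRA had 5 called genes at day 2 (7.46% of the 67), against 8.21% of all genes, and 7 at day 4 (10.4%), against 15.9%. BMS753 had 4 at day 2 (5.97%), against 8.27%, and 5 at day 4 (7.46%), against 11.6%. The combination had 1 at day 2 (1.49%), against 5.19%, and 0 at day 4, against 5.13%. EtOH at day 4 had 2 (2.99%), against 2.22%. The share of matrix genes called early was thus close to or under the share of all genes in each of these tables.

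Col12a1, Vcan, the gene of versican, and the fibrillin gene Fbn2 were called with ATRA at day 2 and at each later time. Col12a1 was at 7.61 at day 2, 8.49 at day 4 and 8.49 at day 10. Vcan was at 5.35, 4.96 and 5.67, and Fbn2 at 4.87, 5.14 and 5.05, so all 3 genes stayed within their SE from day 2 on. Col3a1 was not listed at day 2 and was at 6.73 (SE 2.06) at day 4 and 10.19 (SE 2.34) at day 10. Col1a2, a chain of type I collagen, was at 4.36 (SE 1.68) at day 4 and 7.19 (SE 2.08) at day 10, and Col11a1, a minor fibrillar collagen, at 5.96 and 6.50. Of the 19 matrix genes up-regulated with ATRA at day 10, 13 were not called at day 2 or day 4. These are 19.4% of the 67, against 15.2% of all genes for the same pattern. They included Col1a1, Col6a1, Col6a2, Col6a3, Lum, Postn, Tnc and Mmp24. Col6a5 was already down at day 4, at -6.90 (SE 2.41).

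With BMS753 in WT cells, Col3a1 was at 5.23 at day 4 and 10.77 at day 10, a difference larger than either SE (1.88 and 2.31). Col12a1 was at 6.68 and 9.13, Vcan at 4.73 and 5.21, and Col6a5 at -6.14 and -5.46. At day 2 the BMS753 table listed Mmp9, a gelatinase (6.84), Itgb8 (4.00), Col5a1 (2.19) and the protease gene Adamts16 (-5.29), none of them in the ATRA table of that day. The smallest log2 fold change listed at day 2 was 1.82 with BMS753 and 3.55 with ATRA, so the absence of Col5a1 from the ATRA table does not give its level there. Genes seen in a single early table were Serpinf1, which codes for the secreted factor PEDF (4.21), and Col2a1, the cartilage collagen (3.56), with ATRA at day 2, Col4a6, a basement membrane collagen (4.43), with BMS753 at day 4, and Loxl1 (-4.76) with the combination at day 2. In EtOH at day 4 Col5a3 was at 6.86, Matn3 at -6.64 and Spon1 at 1.96. Thbs1 was at 1.85 with the combination at day 4.

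**Figure D3:**
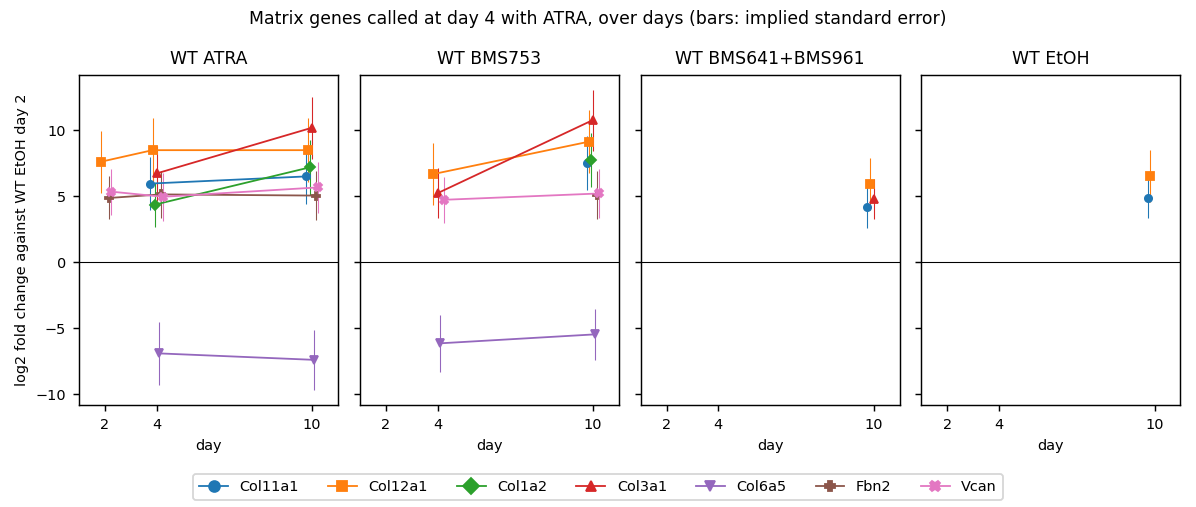
Log2 fold change against WT EtOH at day 2 (y axis) over days (x axis) for the 7 matrix genes called with ATRA at day 4, in WT cells with 4 treatments, where bars are the implied SE and a missing point means not listed. Col3a1 lies at 6.73 at day 4 and 10.19 at day 10 with ATRA, and Col6a5 is the one gene below 0.

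EtOH at day 10 bears on how much of the ATRA pattern needed ATRA, since both samples had changed to Neurobasal medium. Of the genes up-regulated with ATRA at day 10 in WT cells, 4 were also up-regulated in EtOH at day 10 (5.97% of the 67), against 3.08% of all genes. They were Col11a1 (6.50 with ATRA and 4.89 in EtOH), Col12a1 (8.49 and 6.55), Tnc, the gene of tenascin C (5.76 and 4.05), and Itga2b (5.76 and 5.58). Itga2b codes for an integrin subunit known from platelets. The ATRA values of Col11a1 and Tnc were higher by 1.61 and 1.71, more than the smaller but not the larger SE, and those of Col12a1 and Itga2b were within either SE. The remaining genes up-regulated with ATRA, including type I, III and VI collagens, Lum, Postn and Vcan, were not listed in EtOH.

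In the mutant lines ATRA up-regulated more matrix genes than in WT cells. The count was 31 in raraKO, 33 in rarbKO and 31 in rargKO, beside 19 in WT cells. Of the 67 genes these are 46.3%, 49.3% and 46.3%, beside 28.4%. The share of all genes up-regulated was 19%, 20.5% and 21.4%, beside 22.5% in WT cells. With ATRA, 14 matrix genes (20.9%) were up-regulated in WT cells and in all 3 mutant lines, against 8.33% of all genes. A further 8 (11.9%) were up-regulated in all 3 mutant lines and not in WT cells, against 3.14% of all genes. These 8 were Adamts5 and Adamts7 (proteases of the aggrecanase family and its relatives), the proteoglycans Bgn and Dcn, the collagens Col5a1 and Col8a2, Emilin1 of elastic fibres, and Serpinb10. Bgn, Col8a2, Emilin1 and Adamts7 were up-regulated in WT cells with BMS753. The smallest log2 fold change listed with ATRA at day 10 was 4.73 in WT and 4.17 in raraKO cells. In raraKO cells Col5a1 (4.22), Dcn (4.23) and Adamts7 (4.69) were under 4.73. Their absence with ATRA in WT cells therefore does not give their level there.

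In rarbKO cells with ATRA, Col3a1 was at 11.90 (SE 2.43), Bgn at 11.69 (SE 2.78), Postn at 11.04 (SE 2.38), Matn4 at 10.71 (SE 2.72) and Col6a3 at 10.15 (SE 2.39). Of 16 genes listed with ATRA in both WT and rarbKO cells, 15 were higher in rarbKO, with a median difference of 2.29 and a largest difference of 4.37 for Postn. The 15 include the down-regulated Col6a5, at -5.37 in rarbKO and -7.39 in WT cells. For 5 of the 16 the difference was within either SE. Found only in this table were Col27a1 (4.77), Col4a5 (4.71), Fbln5 (7.35), Mfap2 (4.61) and Mmp14, the membrane-type collagenase (5.15). Eln, the elastin gene, was at 8.68 (SE 2.20) here and 4.65 (SE 1.75) in raraKO cells with ATRA. Mmp24 and Itga2b, listed with ATRA in WT cells, were not listed in rarbKO cells with ATRA.

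In rargKO cells with ATRA, Col3a1 was at 11.71 (SE 2.42), Col12a1 at 11.04 (SE 2.55), Serpinb7 at 10.57 (SE 2.72), Postn at 9.60 (SE 2.28) and Serpinb10 at 9.45 (SE 2.66). Of 17 genes shared with WT ATRA, 15 were higher in rargKO, with a median difference of 1.52, but 12 of the 17 were within either SE. Here too the 15 include the down-regulated Col6a5, at -5.42 in rargKO and -7.39 in WT cells. In raraKO cells with ATRA, Col3a1 was at 10.50 (SE 2.22), Col12a1 at 8.98 (SE 2.30), Col1a2 at 8.74 (SE 2.07), Serpinb7 at 8.56 (SE 2.54) and Col11a1 at 7.47 (SE 2.00). Of 19 genes shared with WT ATRA, 10 were higher and 9 lower in raraKO, with a median difference of 0.06 and 17 within either SE. Lama4 (5.87, SE 1.89), a laminin chain of blood vessels and nerve, was listed in raraKO cells with ATRA and nowhere else, and Timp2 (4.78) and Serpinb1b (7.64) in rargKO cells with ATRA and nowhere else.

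With ATRA, 2 matrix genes (2.99% of the 67) were down-regulated in WT cells, against 8.61% of all genes, and 2 (2.99%) in raraKO, against 10.4%. There was 1 (1.49%) in rarbKO, against 10.3%, and 2 (2.99%) in rargKO cells, against 9.47%. Col6a5 was at -7.39 in WT, -7.55 in raraKO, -5.37 in rarbKO and -5.42 in rargKO cells. Acan was at -5.87 in raraKO cells and Matn3, a cartilage matrilin, at -6.18 in rargKO cells.

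**Figure D4:**
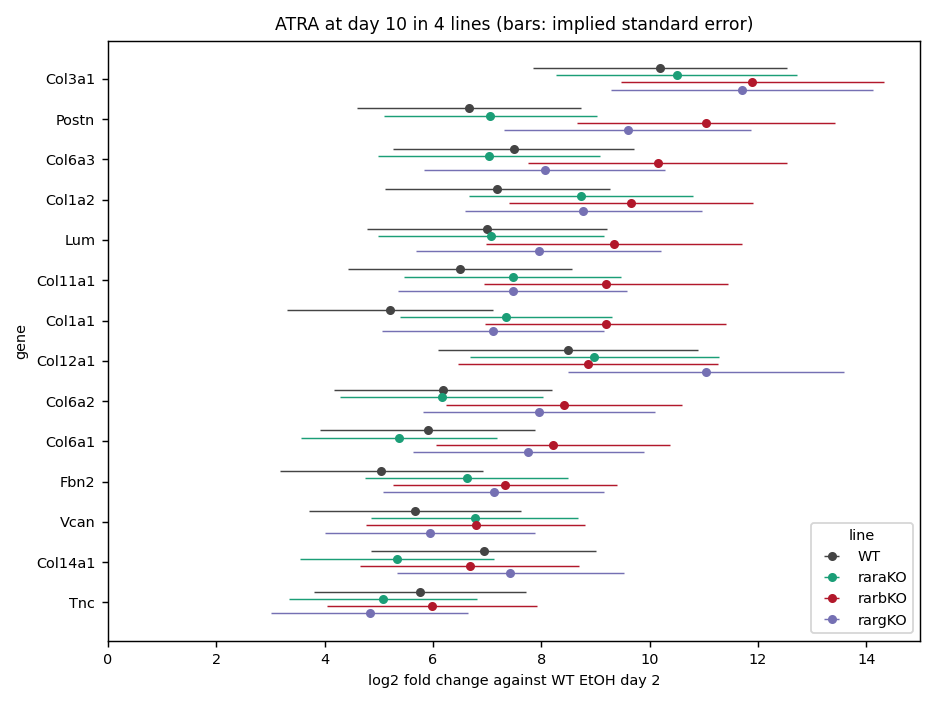
Log2 fold change against WT EtOH at day 2 (x axis, with the implied SE as bars) for the 14 matrix genes (y axis) up-regulated with ATRA at day 10 in all 4 lines, with 1 point per line. For Postn the rarbKO point lies at 11.04 and the WT point at 6.67, while for Tnc the 4 points lie between 4.83 and 5.98.

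With BMS753 the counts in the mutant lines did not exceed that of WT cells. There were 16 up-regulated matrix genes (23.9% of the 67) in rarbKO cells, against 22.3% of all genes, and 19 (28.4%) in rargKO cells, against 19.9%. WT cells had 23 (34.3%), against 21.8%. In rarbKO cells Col3a1 was at 9.51 (SE 2.21), Col14a1 at 7.71 (SE 2.07), Col12a1 at 7.34 (SE 2.25), Mmp24 at 7.19 (SE 2.24) and Col6a3 at 6.91 (SE 2.10). All 17 genes listed there were also listed in WT cells with BMS753, where the median difference, rarbKO minus WT, was -0.88, and 15 of the 17 were within either SE. The largest values in rargKO cells were those of Col3a1 (9.59, SE 2.16), Col12a1 (9.39, SE 2.34), Serpinb7 (9.18, SE 2.56), Col14a1 (8.54, SE 2.08) and Serpinb10 (7.54, SE 2.53). The link protein gene Hapln4 (-5.20) and Col6a5 (-6.34) were down in rargKO cells, and Col6a5 (-4.80) in rarbKO cells.

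Within 1 mutant line ATRA and BMS753 at the same dose gave values further apart for several collagens than in WT cells. In rarbKO cells, 14 matrix genes were in both tables and 20 were listed with ATRA only. Of the 14, 11 were higher with ATRA, the median difference was 2.71 and 4 were within either SE. Postn was at 11.04 with ATRA and 4.88 with BMS753, a difference of 6.16, Col1a1 at 9.19 and 5.45, Lum at 9.34 and 5.88, and Col6a1 at 8.21 and 4.88. In rargKO cells 18 were in both tables, 17 were higher with ATRA and the median difference was 1.48, but 13 were within either SE. The 17 include the down-regulated Col6a5, at -5.42 with ATRA and -6.34 with BMS753. Postn again differed most, at 9.60 with ATRA and 4.59 with BMS753. The difference between the WT pair and the mutant pairs was not tested.

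The RARβ and RARγ agonists gave more matrix genes in raraKO cells than in the other lines. BMS961 had 12 up-regulated matrix genes (17.9% of the 67) in raraKO cells, against 10.9% of all genes, and 4 (5.97%) in rarbKO cells, against 7.02%. The combination had 16 (23.9%) in raraKO cells, against 16.8%, 6 (8.96%) in rarbKO cells, against 8.27%, and 8 (11.9%) in rargKO cells, against 8.61%. With a p-value limit of 0.001 the raraKO count with the combination was 7, beside 1 in WT cells. At a log2 threshold of 5 it was 9, beside 5 in WT cells. BMS641 alone in rargKO cells had 8 (11.9%), against 8.5%. The shares of all genes moved in the same order.

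With the combination, 10 matrix genes (14.9% of the 67) were up-regulated in raraKO and not in WT cells, against 10.8% of all genes. Up-regulated in WT and not in raraKO cells were 2 (2.99%), Lamb3 and Serpinb9, against 3.88%. The 10 were Col14a1 (5.69), Col1a2 (5.60), Fbn2 (5.38), Mmp24 (5.35), Tnc (5.19), Col22a1 (4.65), Postn (4.50), Adamts7 (4.15), Col1a1 (4.11) and Vcan (4.11). Tnc was also up-regulated in WT cells in EtOH (4.05) and with BMS961 (3.66). Leaving out genes called in EtOH at day 10 took the raraKO count with the combination from 16 to 10. With a p-value limit of 0.001, the genes up-regulated in raraKO and not in WT cells were 6 rather than 10. Col3a1 was at 8.33 (SE 1.84) in raraKO and 4.78 (SE 1.49) in WT cells, a difference of 3.56 that is larger than either SE. Col12a1 was at 7.53 and 5.94, within either SE. Acan was at -4.70 in raraKO and -7.51 in WT cells, and Col6a5 was at -4.14 in raraKO cells. The doses were the same in both lines.

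BMS961 alone gave a similar set in raraKO cells. Col12a1 was at 7.71 (SE 2.05), Col3a1 at 7.48 (SE 1.77), Col11a1 at 5.64 (SE 1.66) and Loxl4 at 5.35 (SE 1.87). Of 11 genes in both raraKO tables, 10 were within either SE, and the exception was Col14a1, at 4.04 with BMS961 and 5.69 with the combination. Postn, Vcan, Mmp24, Col22a1 and Adamts7 were listed with the combination and not with BMS961, and Adamts5 (4.67) with BMS961 and not with the combination. ATRA in the same cells, at another dose, shared 14 listed genes with the combination. Of these, 10 were lower with the combination and 4 higher, and 7 were within either SE. Lower ones were Col1a1 (4.11 beside 7.35 with ATRA), Col1a2 (5.60 beside 8.74) and Postn (4.50 beside 7.06). The 4 higher were Col14a1 (5.69 beside 5.34), Tnc (5.19 beside 5.08) and the down-regulated Acan (-4.70 beside -5.87) and Col6a5 (-4.14 beside -7.55). All 3 collagen VI chains Col6a1, Col6a2 and Col6a3 were listed with ATRA and not with the combination.

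The rarbKO samples with BMS961 or the combination listed genes found in no other sample. Fbln7, a fibulin, was at 7.08 (SE 2.50) with BMS961 and 7.01 (SE 2.49) with the combination, and Gpc4, a cell surface heparan sulphate proteoglycan, at 3.39 (SE 1.17) and 2.79 (SE 1.08). Mfap4, a microfibril protein, was down at -4.46 (SE 1.41) and -3.36 (SE 1.25), and Mmp2, a gelatinase, at -3.88 (SE 1.44) with the combination. Adam12 was at -4.31 with BMS961 in rarbKO cells and -5.45 with the combination in rargKO cells. Col12a1, Thbs1 and Loxl4, listed with these ligands in WT, raraKO and rargKO cells, were in neither rarbKO table. Col11a1 (4.25 and 4.73) was present in both. The combination alone also listed Fbn2 (3.59), Col1a2 (3.21) and, down, Col6a5 (-3.82).

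In rargKO cells BMS641 and the combination gave nearly the same values. The 8 genes in both tables were all within either SE, with differences, combination minus BMS641, between -0.38 and 0.13. Lamb3 was at 6.53 and 6.41, Loxl4 at 6.01 and 5.73, Col12a1 at 5.87 and 5.50 and Itga2b at 5.35 and 5.48. Col9a2 was down at -3.37 and -3.51. Col3a1 (3.71) and, down, Adamts16 (-5.52) were listed with BMS641 only, and Matn4 (6.92) and Adam12 with the combination only.

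Across the 16 day 10 samples, 27 of the matrix genes (40.3% of the 67) were up-regulated in at least 1 ATRA or BMS753 sample and in none of the other samples, against 24% of all genes. In the other direction 6 (8.96%) were up-regulated in other samples only, against 12%, and 18 (26.9%) were up-regulated in both kinds, against 18.5%. By role, 8 of 20 collagens were up-regulated only with ATRA or BMS753, 7 in both kinds and 0 in other samples only. Between 8 and 13 collagens were up-regulated in each ATRA or BMS753 sample, and between 1 and 7 in each other sample, while the share of all genes up-regulated was 19% to 22.5% and 7.02% to 16.8% in the same samples. Elastic fibre and crosslinking genes gave 5 of 10 with ATRA or BMS753 only, 2 with other conditions only (Fbln7 and Loxl4) and 1 (Fbn2) in both. Metalloproteinases gave 3 of 9 with ATRA or BMS753 only and 3 in both, and inhibitors 6 of 9 with ATRA or BMS753 only.

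There were 9 matrix genes up-regulated in all 7 ATRA and BMS753 samples, against 6.56% of all genes: Col11a1, Col12a1, Col14a1, Col1a2, Col3a1, Col6a3, Fbn2, Lum and Postn. The share among the 67 was 13.4%. Col3a1 was at 10.19, 10.77, 10.50, 11.90, 9.51, 11.71 and 9.59 in WT ATRA, WT BMS753, raraKO ATRA, rarbKO ATRA, rarbKO BMS753, rargKO ATRA and rargKO BMS753. In the same order Postn was at 6.67, 7.07, 7.06, 11.04, 4.88, 9.60 and 4.59. Lum was at 7.00, 7.52, 7.07, 9.34, 5.88, 7.95 and 5.80, and was listed in no other sample. The 2 highest Postn values were those of rarbKO and rargKO cells with ATRA, and each was above the other 5 by more than either SE. Col6a3 was at 7.49, 7.83, 7.03, 10.15, 6.91, 8.06 and 5.70 and, like Lum, was in none of the other 9 tables.

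Loxl4 was listed at day 10 in other samples only. It was at 5.19, 6.05, 5.64, 5.35, 4.90, 6.01 and 5.73 in WT combination, WT EtOH, WT BMS961, raraKO BMS961, raraKO combination, rargKO BMS641 and rargKO combination, and it was in none of the 7 ATRA and BMS753 tables and neither of the other 2 rarbKO tables. No pair of these 7 values differed by more than either SE (1.76 to 1.87). Lamb3 was in 5 of these samples, between 5.73 and 6.55, and in rargKO cells with BMS753 (5.87, SE 2.12). EtOH belongs to these samples, so these genes were as high without an added agonist.

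Thbs1, which codes for thrombospondin 1, was in the same number of these samples, 7 of 9, between 3.14 and 3.89 and in no ATRA or BMS753 sample. The smallest log2 fold change listed in any ATRA or BMS753 table of day 10 was 4.17, while the other day 10 tables listed values down to 2.71. Of the 95 values of matrix genes in the other tables, 30 were under 4.17, among them all 7 of Thbs1, both of Gpc4 and all 4 of Col9a2. Their absence from the ATRA and BMS753 tables therefore says nothing about their level there. The values of Loxl4 were all over 4.17, but a value is listed only where it is large beside its SE. The median SE of the listed genes was 1.99 to 2.22 in the ATRA and BMS753 tables of day 10 and 1.48 to 1.73 in the others, so the absence of Loxl4 does not give its level there either.

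**Figure D5:**
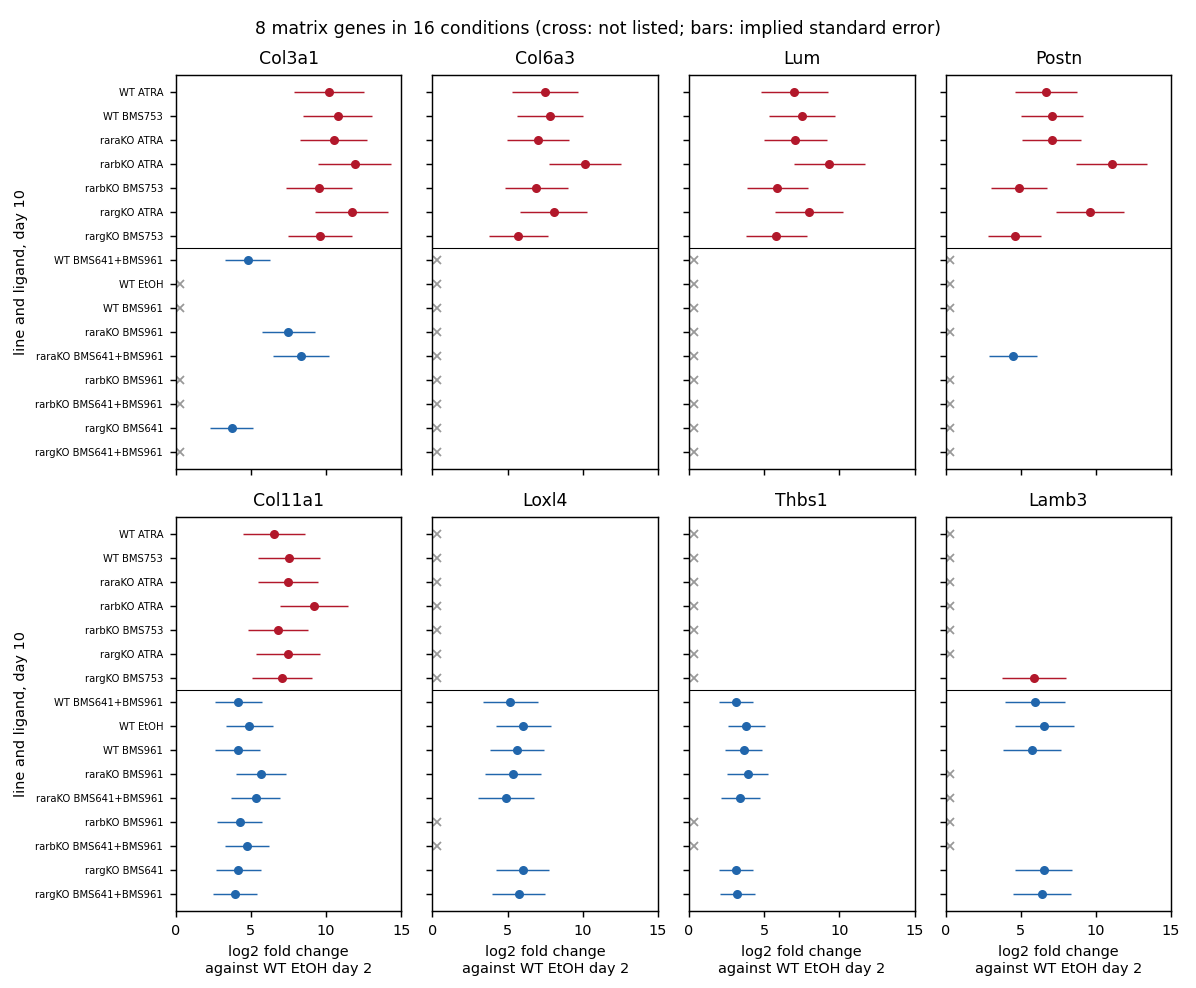
Log2 fold change against WT EtOH at day 2 (x axis, with the implied SE as bars) of 8 matrix genes in the 16 day 10 samples (y axis), red for ATRA and BMS753, blue for the others and a grey cross for not listed. Col6a3 and Lum have points only above the line, Loxl4 and Thbs1 only below it, and Col11a1 in every sample.

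Col11a1 and Col12a1 were the most widely listed, in 17 tables each. Col11a1 was up-regulated in all 16 day 10 samples, between 6.50 and 9.19 with ATRA or BMS753 and between 3.94 and 5.64 in the others, so the 2 ranges did not overlap, but the nearest values, 6.50 (SE 2.06) and 5.64 (SE 1.66), lie within either SE. Col12a1 was between 7.34 and 11.04 with ATRA or BMS753 and between 5.50 and 7.71 in the 7 other samples that listed it, where the ranges overlapped. Doses and lines differ between these samples and all share the EtOH library of day 2 as reference.

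Some of the genes are neighbours in the genome, which the symbol rule did not use. In the mm9 build of the authors, with GENCODE vM1 genes, Col6a2 (chr10:76058507-76086375, minus strand) and Col6a1 (chr10:76171537-76188913, minus strand) lie 85.2 kb apart. They were listed in the same 6 samples, with values of 6.18 and 5.90 in WT ATRA, 6.86 and 6.92 in WT BMS753, 6.16 and 5.38 in raraKO ATRA, 8.42 and 8.21 in rarbKO ATRA, 5.74 and 4.88 in rarbKO BMS753 and 7.96 and 7.76 in rargKO ATRA. Dcn (chr10:96942245-96980777, plus strand) and Lum (chr10:97028135-97035337, plus strand) lie 47.4 kb apart, and Dcn was listed in 3 samples (4.23, 4.79 and 4.84) that were all among the 7 of Lum. Col4a6 and Col4a5 lie 1.31 kb apart on chromosome X in opposite directions and were in 1 table each, not the same one. Serpinb7 and Serpinb8 on chromosome 1 and Serpinb9 and Serpinb1b on chromosome 13 were the other neighbours within 200 kb. The clade B serpins are a family of close copies and mostly act inside cells, so their reads may have been divided among copies. Col3a1 lies at chr1:45368383-45406551 on the plus strand.

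Matrix genes outside the symbol rule, from a list of 82 such as collagen-processing enzymes, CCN proteins and plasminogen activators, appeared for 21. At day 10, 8 of the 21 were up-regulated only with ATRA or BMS753, 1 only in the other samples, 5 in both kinds, and 3 were down-regulated. For all 1753 genes the shares were 24%, 12%, 18.5% and 29.9% in the same order. Plaur, the urokinase receptor, was the 1 in the other samples only, between 4.79 and 5.62 in 7 of them. Plau, urokinase itself, was at 7.83 with ATRA, 7.86 with BMS753, 8.01 with the combination, 6.84 with BMS961 and 7.92 in EtOH in WT cells at day 10. P4ha3, a prolyl hydroxylase of collagen, was at 5.99 with ATRA and 5.94 in EtOH in WT cells. Mgp, matrix Gla protein, was at 7.82 in WT, 10.13 in raraKO, 11.62 in rarbKO and 10.97 in rargKO cells with ATRA. Pcolce2, an enhancer of procollagen cleavage, was down in all 7 ATRA and BMS753 samples, between -6.26 and -4.90, and also with the combination in WT (-3.35) and raraKO (-3.73) cells and with BMS961 in raraKO cells (-3.68).

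Markers of other cell types moved in the same samples. Of 19 mesenchymal markers 13 were in the tables, and between 4 and 8 were up-regulated in each ATRA or BMS753 sample of day 10, against 1 to 4 in each other sample. Thy1, of the same list, was instead down in 8 of the 9 other samples of day 10, between -6.01 and -3.62, and at day 4 in WT cells with ATRA (-7.08) and BMS753 (-6.74). In rarbKO cells with ATRA, 8 were up-regulated, among them Pdgfra (13.09), Meox1 (9.62), Tcf21 (8.56), Prrx1 (7.65) and Twist1 (7.37). Of 14 neuron markers 8 were in the tables, with 1 to 7 up-regulated in the ATRA and BMS753 samples and 0 to 4 in the others. Beside both lists, the share of all genes up-regulated was 19% to 22.5% with ATRA or BMS753 and 7.02% to 16.8% in the others. The sample with the most matrix genes, rarbKO with ATRA, had 1 up-regulated neuron marker, Syt1 (4.83), and rarbKO with BMS753, with 16 matrix genes, had 7, while rargKO with ATRA had 31 matrix genes and 5 neuron markers. WT cells with ATRA had 6 of each list. The part of cell type composition in the matrix gene values was not tested, and in bulk RNA more cells of a type cannot be told apart from more RNA per cell.

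Tagln, a smooth muscle gene among the mesenchymal markers, was at 4.55 in WT EtOH and between 3.01 and 4.68 in the 7 day 10 samples that listed it, with none of them ATRA or BMS753, and 3 of the 7 were under 4.17. Acta2, smooth muscle actin, was listed at day 10 in 3 samples, WT EtOH (2.89) and rargKO with BMS641 (2.93) and the combination (2.78), all under 4.17.

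Extraembryonic and parietal endoderm markers, a source of laminin and type IV collagen, were in the tables for 5 of 12 genes. Gata6 was up-regulated with ATRA in raraKO (7.46), rarbKO (8.07) and rargKO (8.86) cells at day 10 and not listed with ATRA in WT cells at day 10. It was also up-regulated in rargKO cells with BMS753 (7.25) and in WT cells with ATRA at day 2 (6.62) and day 4 (6.29) and with BMS753 at day 4 (5.88). No other gene of this list was up-regulated in the 3 mutant ATRA samples. Markers of undifferentiated cells were in the tables for 4 of 8 genes, all down. Of the oligodendrocyte precursor list of the study, 18 of the 100 genes in the tables are matrix genes of the set described here, among them Col1a1, Col1a2, Col3a1, Lum, Dcn and Vcan. That is 18% of the list, beside 3.82% for all 1753 genes, 7.14% of the astrocyte list, 4.85% of the neuron list and 2.34% to 8.82% of the lists of neuron subtypes. These counts cover only genes that passed the p-value limit of the tables. In WT cells with ATRA at day 10 they made up 9 of the 36 up-regulated genes of that list (25%), and in rarbKO cells with ATRA 10 of 26 (38.5%).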

How the data were processed

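The series holds 24 poly(A) RNA libraries of P19 cells, 1 per condition. According to the methods, the authors mapped reads to mm9 with Bowtie 2.1.0, counted them per gene with featureCounts and tested them with DESeq2. The deposited log2 fold changes compare each of 23 samples with the EtOH library of WT cells at day 2. The deposited p-values are unadjusted, and none exceeds 0.01. In 1 table the authors also gave the standard error of the log2 fold change, a score in log2 units for 144 genes.

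From these values the standard error was computed as the absolute log2 fold change divided by the normal quantile of its p-value, which matched the deposited one to a relative difference of 4.27e-08. A call needed a log2 fold change of more than 2 in size, the study's limit of 4-fold. Shares of all genes are of the 1753 genes in at least 1 table. The number of genes tested is not given in the sources used here, and neither are depths. The genes named with values are the largest increases and decreases of each day 10 table (10 and 5 for WT ATRA, 5 and 3 for the others), all genes of days 2 and 4, all in 10 or more tables, up to 5 per pair of tables called in 1 and not listed in the other, and others singled out after their values were seen. Of the genes so chosen, some are not reported here, though counts over the 67 genes include them. The genes, lists and thresholds were chosen with earlier results of these data known. The calling code was run on simulated data, where all 200 changed genes were recovered and 0 unchanged genes were called. The simulated SEs were set far below those of the real values. The run therefore checks the code and says nothing about the error rate of the calls. Gene positions are of GENCODE vM1 on mm9 and were found for 66 of the 67 genes. Upstream sequences are of RefSeq on GRCm38.p6. Other thresholds, a p-value limit of 0.001 and leaving out genes called in EtOH or the serpins were tried. Tables were read with pandas 2.3.3 in Python 3.11.15, quantiles came from scipy 1.17.1 and arrays from numpy 2.4.6, and plots were drawn with matplotlib 3.10.9.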

Additional observations from a re-analysis of the deposited data

How the results depend on the processing

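Over 16 counts and 92 alternative values, 66 stayed within 1.5 times the count given above and 26 did not. Some of the 66 could not have moved. No day 10 table lists a value under 2.71 in size, so a log2 threshold of 1 gave the same calls as 2. The ATRA and BMS753 tables of day 10 list none under 4.17, so a threshold of 3 changed nothing there. Those unchanged counts say nothing about stability. Leaving out symbols that match the pattern by spelling alone also left the counts as they were. The counts tried with a p-value limit of 0.001 all moved. With a p-value limit of 0.001, matrix genes up-regulated at day 10 fell to 6 with ATRA, 11 with BMS753, 1 with the combination, 1 with BMS961 and 4 in EtOH in WT cells and to 7 with the combination in raraKO cells, those up-regulated with the combination in raraKO and not WT cells were 6, and down-regulated genes were 0 in each of these 6 samples. At a log2 threshold of 5, 5 were up-regulated with the combination, 5 with BMS961 and 9 with the combination in raraKO cells, and 1 was down in EtOH, 0 with BMS961 and 0 with the combination in raraKO cells. Leaving out genes called in EtOH at day 10, 1 was up with the combination, 0 with BMS961 and 10 with the combination in raraKO cells, and 1 was down with ATRA, 0 with the combination, 0 with BMS961 and 1 with the combination in raraKO cells. These changes follow from fewer genes passing. Without the serpins, or for the split by ligand without the rarbKO ATRA sample or with WT samples only, alternatives chosen after seeing the data, counts stayed within 1.5 times. With 1 library per condition no replicate could be left out. No paired analysis was possible because each group holds 1 sample. The values of genes with a p-value above the limit of a table are unknown, and depth could not be used to set detection limits.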

Other observations

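Some matrix genes were seen in 1 or 2 samples with large values. Serpinb1b was at 7.64 (SE 2.59) in rargKO cells with ATRA, Fbln5, which helps assemble elastic fibres, at 7.35 (SE 2.59) in rarbKO cells with ATRA, and Col5a3 at 6.86 (SE 2.28) in WT cells in EtOH at day 4. Mmp9 was at 6.84 (SE 2.38) with BMS753 at day 2 in WT cells and at 7.17 (SE 2.59) with ATRA at day 10 in rarbKO cells, and in no sample between. Itga8, an integrin subunit of mesenchyme, was at 6.54 (SE 2.06) in raraKO and 5.42 (SE 2.08) in rarbKO cells with ATRA. Values of 1 library with such SEs have no replicate check.

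Among matrix genes outside the symbol rule, Ccn4, a matricellular target of WNT signalling, was at 12.02 in rarbKO cells with ATRA, 10.50 with ATRA and 10.30 with BMS753 in WT cells, 8.07 with the combination in raraKO cells, and not listed in EtOH. Fmod, the gene of fibromodulin, a relative of lumican, was at 8.80 in WT cells with BMS753, 10.32 in rarbKO cells with ATRA and 9.86 in rargKO cells with ATRA, and was not listed with ATRA in WT or raraKO cells. Fap, a serine protease of activated fibroblasts, was at 7.49 with ATRA and 7.52 with BMS753 in WT cells and at 8.55 and 7.18 with ATRA in raraKO and rarbKO cells.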
